A study of Homo sapiens with 6 samples.

Results

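The genes for 10 enzymes that remove superoxide and peroxides were followed in SH-SY5Y cells, a human neuroblastoma line: the superoxide dismutases SOD1 and SOD2, catalase (CAT), glutathione peroxidase 1 (GPX1) and the peroxiredoxins PRDX1 to PRDX6. They were chosen by symbol, with earlier results of these data known, and all 10 of the 61860 genes in the deposited table were found, each on 1 row. All 10 were also among the 16574 genes with enough counts for testing. Both groups came from cells kept in retinoic acid to drive neuronal differentiation and exposed to insulin at 100 nM and D-glucose at 30 mM for 24 h, which makes them insulin resistant (IR). The IR control group had 3 libraries, and the IR+Oligonol group had 3 libraries from cells that also received Oligonol, a polyphenol preparation from lychee fruit, at 500 ng/mL for 24 h. Both groups are 1 cell line under insulin resistance, and cells without it were not analysed here. No source used here says if the replicates were grown as separate cultures, and p-values cover only the spread among these libraries, which may be technical.

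Superoxide leaks from the respiratory chain and from oxidases. Dismutases turn it into hydrogen peroxide, SOD1 with copper and zinc in the cytosol and SOD2 with manganese in the mitochondrial matrix. Hydrogen peroxide is then reduced by catalase in peroxisomes, by GPX1 with glutathione in the cytosol and mitochondria, and by the peroxiredoxins, most of which are recharged by thioredoxin. PRDX1, PRDX2 and PRDX6 act mainly in the cytosol, PRDX3 in the mitochondrial matrix, PRDX4 in the endoplasmic reticulum (ER) and PRDX5 in several compartments. Neurons hold little catalase and are known to lean on the peroxidases.

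Levels are given as CPM, estimated counts scaled to the library size after TMM, which sets libraries to a common level for most genes. The deposited estimated counts behaved as values per transcript length, so CPM can be compared between genes. Deposited totals were 22738203 to 32209583 estimated counts in the IR controls and 19457923 to 20912945 with Oligonol, and TMM factors ran from 0.532 to 0.739 and from 1.23 to 1.94. Protein-coding genes held 6.25 to 6.83% of the estimated counts in the controls and 10.0 to 12.3% with Oligonol. Over the counts of protein-coding genes, the median GC content was 56.0 to 56.3% in the controls, 51.2% in IR+Oligonol 1, 51.6% in IR+Oligonol 3 and 54.1% in IR+Oligonol 2. Fold changes fell as transcript GC content rose, with a Spearman's rho of -0.85 across 11720 tested protein-coding genes, given as a description because genes do not replicate one another. Neuronal markers were all tested (8 of 8), as were 9 of 10 noradrenergic neuroblast markers (TH had too few counts), against 1 of 6 glial and 1 of 6 myeloid markers. Summed neuronal markers ran from 167 to 193 CPM in the controls and from 121 to 151 with Oligonol. By gene, though, 3 of the 8 were called higher and 1 lower in the edgeR test described below. Noradrenergic markers summed to 235 to 282 and to 140 to 198 CPM, with 0 of 9 tested higher and 2 lower. Mesenchymal markers summed to 39.1 to 56.0 and to 35.4 to 37.7 CPM, with 1 of 5 tested higher and 1 lower. Of all tested genes 26.0% were called higher and 23.0% lower. The part of these markers in the results was not tested. In bulk samples, fewer cells of a type and less RNA per cell cannot be told apart.

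Promoters were searched because members that move together can share upstream sequence. RefSeq (GRCh38.p14) gave 11 promoters for 7 of the 10 genes, and the 250 bases before each start were read. SOD1, PRDX1 and PRDX6 had no entry and were not searched, and SOD2 and PRDX5 had more than 1 promoter each. A GC box, the letters GGGCGG on either strand, was found in all 11, against 42.6% of 35114 promoters of the same length. The 11 do not replicate one another, as 4 belong to SOD2 and the PRDX5 windows overlap. They were 60.4 to 80.8% G or C, and no share was computed for promoters of matched GC content. At GPX1 and PRDX5, 247 of the 250 bases lay in annotated exons. The core of the antioxidant response element, TGACNNNGC on either strand, was found in none of the 11 and in 10.9% of all promoters. With so few promoters, none in 11 cannot be told apart from a share of 10.9%. The FOXO letters GTAAACA were also in none (2.98% of all), and the NF-kB letters (GGGA, then any 4 bases, then CC), which can overlap the GC box, were in 1 of 4 SOD2 promoters (22.6% of all). A match is a description of the letters and not of a bound site. The stretches outside annotated exons are shown for SOD2 (chr6:159693329-159693491, minus strand) and CAT (chr11:34438684-34438924, plus strand), whose levels were higher with Oligonol, and for PRDX2 (chr19:12801860-12802030, minus strand), whose level was lower. They run 5′ to 3′ with GC boxes in capitals.
SOD2: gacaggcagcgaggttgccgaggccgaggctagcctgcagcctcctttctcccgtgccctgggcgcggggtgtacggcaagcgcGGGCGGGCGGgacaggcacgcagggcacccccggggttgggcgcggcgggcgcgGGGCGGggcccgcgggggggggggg
CAT: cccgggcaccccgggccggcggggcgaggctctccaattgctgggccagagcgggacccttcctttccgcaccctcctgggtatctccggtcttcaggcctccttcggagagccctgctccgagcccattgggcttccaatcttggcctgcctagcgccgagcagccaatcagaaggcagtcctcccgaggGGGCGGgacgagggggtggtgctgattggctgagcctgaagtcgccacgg
PRDX2: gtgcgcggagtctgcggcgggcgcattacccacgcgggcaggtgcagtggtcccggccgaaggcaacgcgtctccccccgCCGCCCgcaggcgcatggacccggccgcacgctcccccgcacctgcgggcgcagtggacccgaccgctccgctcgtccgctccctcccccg
The 250 bases were 80.8% G or C at this SOD2 promoter, 68.8% at CAT and 75.2% at PRDX2, against a median of 58% over all promoters. GC-rich promoters with a GC box were thus present on both sides of the comparison.

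In the IR controls the set was led by 3 genes. PRDX2 stood at 109 ± 12.3 CPM (SD, n = 3), PRDX5 at 91.5 ± 15.0 and GPX1 at 65.5 ± 11.5, and together they made up 78.5% ± 3.38 of the summed level of the 10 genes. PRDX6 (24.8 ± 5.78) and PRDX1 (18.0 ± 7.65) followed, then SOD2 (11.0 ± 0.787) and SOD1 (11.0 ± 3.37), PRDX4 (4.05 ± 1.00), PRDX3 (3.36 ± 0.631) and CAT, the lowest, at 0.978 ± 0.0951. In this order the neighbours PRDX2 and PRDX5, PRDX6 and PRDX1, PRDX1 and SOD2, SOD2 and SOD1, and PRDX4 and PRDX3 had overlapping ranges over the 3 libraries. With Oligonol the order of the first 4 genes by mean was the same, SOD2 stood before PRDX1, and CAT was again the lowest.

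**Figure D1:**
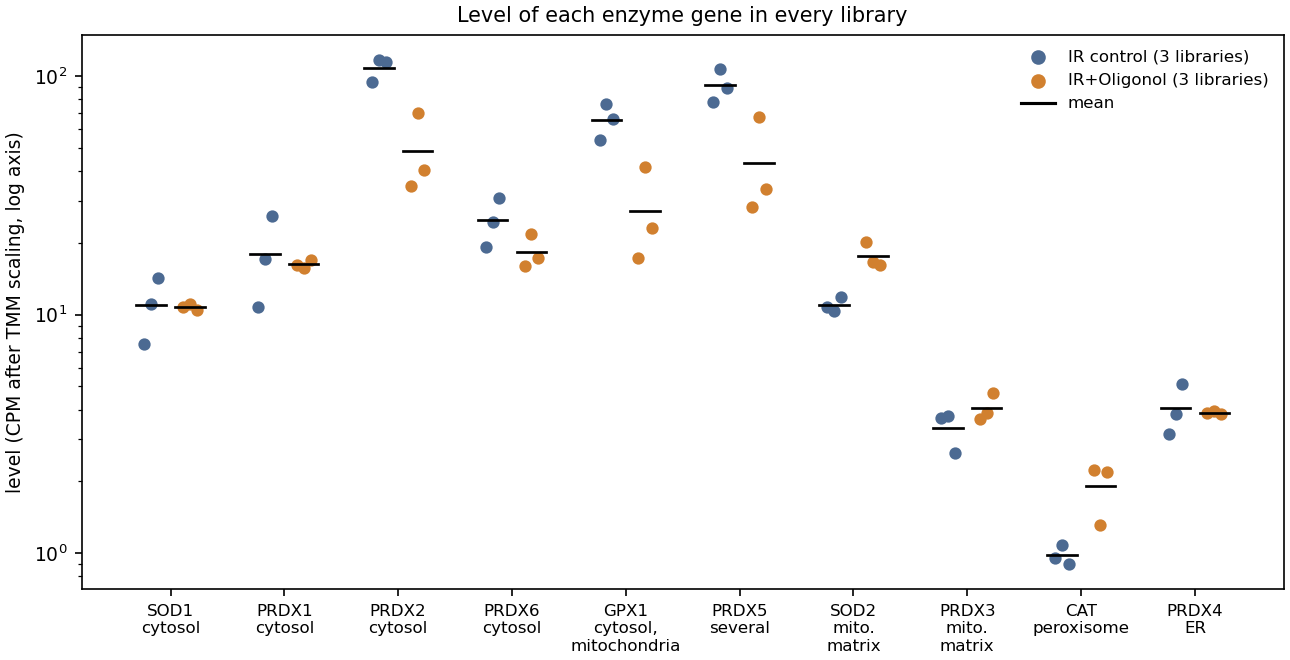
Level of each gene in CPM after TMM scaling (log axis) in the 3 IR control and 3 IR+Oligonol libraries; points are libraries, bars the group mean, and the second label line is the main cell compartment (mito. matrix, mitochondrial matrix; ER, endoplasmic reticulum). The groups lie apart for SOD2 and CAT (higher with Oligonol) and for GPX1, PRDX2 and PRDX5 (lower), and IR+Oligonol 2 lies nearest the controls in GPX1, PRDX2, PRDX5 and CAT.

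By edgeR's quasi-likelihood test with Benjamini-Hochberg adjustment over all 16574 genes, 2 of the 10 genes were higher with Oligonol and 3 were lower at an adjusted p under 0.05. The background in the same test was 48.9% of all tested genes called, 26.0% higher and 23.0% lower, so the members' share of calls was near that of any gene. Among 11720 tested protein-coding genes 54.6% were called, 27.1% higher and 27.5% lower. The groups also did not overlap in these 5 genes, against 62.6% of all tested genes (33.8% higher and 28.8% lower). The members' median log2 fold change was -0.10, against 0.15 over all tested genes. By compartment, 1 of 4 cytosolic genes was lower and none higher, and 1 of 2 genes of the mitochondrial matrix was higher. The peroxisomal gene was higher, GPX1 and PRDX5 were lower, and the ER gene did not pass.

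Among the dismutases, RNA of the mitochondrial enzyme's gene rose and that of the cytosolic one's did not pass. SOD2 (chromosome 6, 159669069 to 159762529, GRCh38.p13) stood at 10.7, 10.4 and 11.9 CPM in the controls and at 20.2, 16.6 and 16.1 with Oligonol. All 3 Oligonol libraries lay above every control, with a mean 1.60 times that of the controls and a log2 fold change of 0.68 (SE 0.19, edgeR adjusted p = 0.0228). SOD1 (chromosome 21, 31659666 to 31668931) stood at 7.55, 11.1 and 14.3 CPM in the controls and at 10.7, 11.1 and 10.5 with Oligonol. The Oligonol libraries lay inside the range of the controls, and the log2 fold change was -0.03 (SE 0.25, adjusted p = 0.929). On the strand opposite SOD2 lies WTAP, a subunit of the RNA methyltransferase complex, which rose from 2.46 ± 0.513 to 5.68 ± 0.487 CPM (adjusted p = 0.00746). The kit marks strand, but no source used here says if counting made use of it, and without it reads of the 2 genes cannot be told apart where they overlap.

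Catalase RNA rose from a low level. CAT (chromosome 11, 34438934 to 34472060) stood at 0.951, 1.08 and 0.898 CPM in the controls and at 2.23, 1.32 and 2.19 with Oligonol. The groups did not overlap, although IR+Oligonol 2 lay close to the controls. The mean was 1.96 times that of the controls, with a log2 fold change of 0.98 (SE 0.27, adjusted p = 0.0198). CAT rested on 34.7 to 108 read equivalents per library, the fewest of the set, by the median length of its annotated transcripts. Among 11650 other tested protein-coding genes, those whose log2 CPM was most like that of CAT over the 6 libraries were FBXL2 (Pearson's r 0.9974), STXBP5 (0.9973) and SKIL (0.9972), a description over 2 groups of 3 that share the same libraries.

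RNA of the abundant peroxidases fell under TMM scaling. GPX1, a selenoprotein (chromosome 3, 49357176 to 49358353), stood at 53.9, 76.8 and 65.9 CPM in the controls and at 17.2, 41.4 and 23.2 with Oligonol. All Oligonol libraries lay below every control, and the log2 fold change was -1.27 (SE 0.36, adjusted p = 0.0221). PRDX2, a cytosolic peroxiredoxin abundant in neurons and red cells (chromosome 19, 12796820 to 12801800), stood at 94.6, 117 and 115 CPM in the controls and at 34.6, 70.1 and 40.5 with Oligonol. The control mean was 2.25 times the Oligonol mean, and the log2 fold change was -1.17 (SE 0.32, adjusted p = 0.0203). HOOK2, an adaptor of microtubule transport that overlaps PRDX2 on the same strand, also fell (log2 fold change -0.94, adjusted p = 0.0110). PRDX5, the peroxiredoxin of several compartments (chromosome 11, 64318121 to 64321811), stood at 77.9, 108 and 88.9 CPM in the controls and at 28.2, 67.6 and 33.6 with Oligonol. Its log2 fold change was -1.09 (SE 0.37, adjusted p = 0.0403). In all 3 genes IR+Oligonol 2 was the highest Oligonol library and nearest the controls.

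The directions of these 3 falls depend on the scaling. With library totals in place of TMM, GPX1 had a log2 fold change of 0.04 (adjusted p = 0.877), PRDX2 of 0.15 (adjusted p = 0.408) and PRDX5 of 0.20 (adjusted p = 0.402), while SOD2 stood at 2.09 and CAT at 2.41. Under that scaling 7 of the 10 genes were higher and none was lower, beside 68.1% of all tested genes higher and 0.223% lower.

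The other peroxiredoxins did not pass the test. PRDX1, a cytosolic peroxidase (chromosome 1, 45510914 to 45542732), stood at 10.8, 17.2 and 26.0 CPM in the controls and at 16.1, 15.6 and 17.0 with Oligonol, a log2 fold change of -0.15 (SE 0.31, adjusted p = 0.718). Its controls spread over more than the whole range of the Oligonol libraries. PRDX6, the peroxiredoxin with a single active cysteine and a phospholipase activity (chromosome 1, 173477330 to 173488815), stood at 19.2, 24.6 and 30.8 CPM in the controls and at 16.0, 21.8 and 17.3 with Oligonol, a log2 fold change of -0.44 (SE 0.25, adjusted p = 0.176). PRDX3, the matrix peroxiredoxin (chromosome 10, 119167720 to 119178812), stood at 3.70, 3.74 and 2.63 CPM in the controls and at 3.65, 3.87 and 4.71 with Oligonol, a log2 fold change of 0.28 (SE 0.21, adjusted p = 0.277). PRDX4, which feeds oxidising power into protein folding (chromosome X, 23664262 to 23686397), stood at 3.17, 3.83 and 5.14 CPM in the controls and at 3.86, 3.93 and 3.84 with Oligonol. Its log2 fold change was -0.06 (SE 0.21, adjusted p = 0.814). In SOD1, PRDX1 and PRDX4 the Oligonol libraries lay within a narrow band inside the range of the controls. With library totals in place of TMM all 5 of the genes that did not pass, SOD1 included, were higher (log2 fold changes of 0.95 to 1.65).

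The make-up of the set moved from the 3 abundant peroxidases to the other genes. Such shares do not depend on library scaling, but they are not free of the GC trend described further on. Shares with that trend removed were not computed. GPX1, PRDX2 and PRDX5 together held 80.2, 80.8 and 74.6% of the summed level in the controls and 52.4, 70.7 and 57.6% with Oligonol. SOD2 and CAT held 4.13, 3.07 and 3.54% in the controls and 14.7, 7.06 and 10.8% with Oligonol. The Oligonol libraries lay outside the range of the controls in both sums. The grouping of genes follows their calls, so these sums are a description and carry no test. SOD2 alone went from 3.29% ± 0.509 to 9.76% ± 3.35 of the set.

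**Figure D2:**
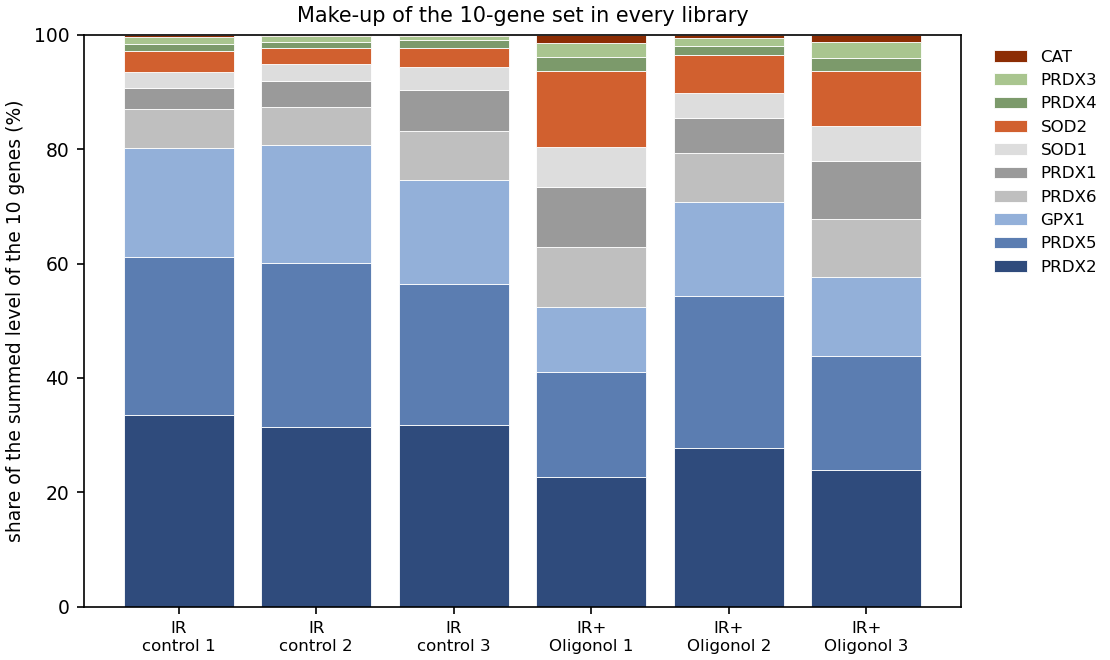
Share of each gene in the summed level of the 10 genes (percent, stacked to 100) in each of the 6 libraries. The blue blocks (PRDX2, PRDX5 and GPX1) fill 74.6 to 80.8% of the bar in the IR controls and 52.4 to 70.7% with Oligonol.

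Ratios of 5 gene pairs set one compartment's enzyme against another's within each library, and these too are free of library scaling, though not of the GC trend described further on. SOD2 over SOD1 was 1.42, 0.936 and 0.830 in the controls and 1.88, 1.50 and 1.54 with Oligonol, a rise of the log2 ratio by 0.66. CAT over GPX1 was 0.0177, 0.0141 and 0.0136 in the controls and 0.129, 0.0317 and 0.0945 with Oligonol, a rise of 2.28 on the log2 scale. PRDX3 over PRDX5 was 0.0475, 0.0348 and 0.0296 in the controls and 0.129, 0.0573 and 0.140 with Oligonol, a rise of 1.47 on the log2 scale. In these 3 ratios the groups did not overlap, with an exact 2-sided permutation p = 0.1 each, the smallest that 3 libraries against 3 can give (0.167 after Benjamini-Hochberg adjustment over the 5 ratios). PRDX3 over PRDX1 differed by 0.34 on the log2 scale (exact permutation p = 0.7, adjusted p = 0.875) and PRDX4 over PRDX1 by 0.02 (exact permutation p = 0.9, adjusted p = 0.9), with overlapping groups. The control libraries spread widely in PRDX3 over PRDX1, from 0.344 in IR control 1 to 0.101 in IR control 3.

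**Figure D3:**
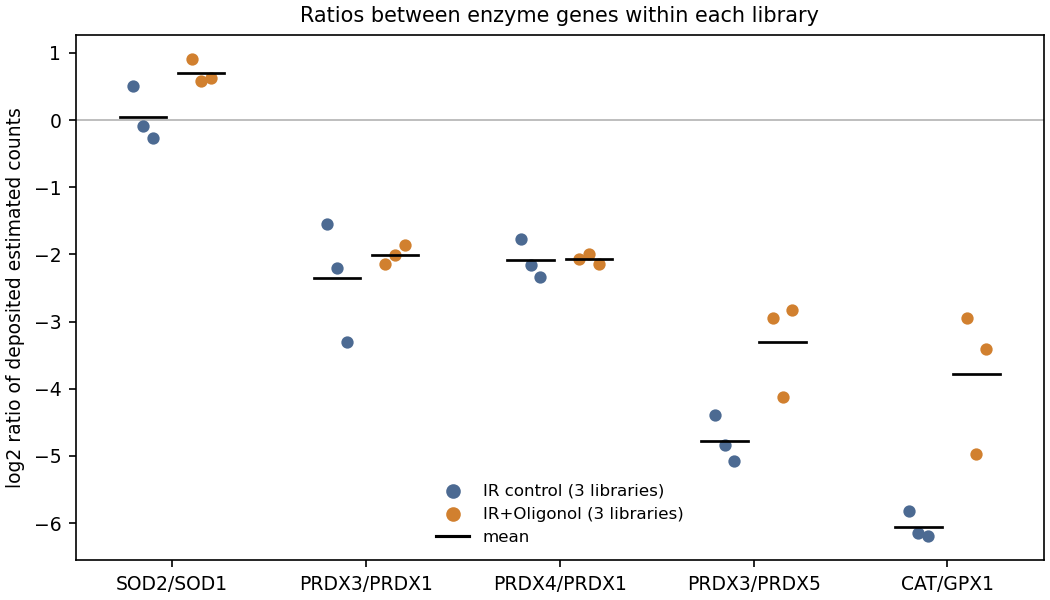
Log2 ratio of the deposited estimated counts of 2 genes within each library, for 3 IR control and 3 IR+Oligonol libraries; points are libraries and bars group means. SOD2/SOD1, PRDX3/PRDX5 and CAT/GPX1 are higher in every Oligonol library than in any control, and the groups overlap for PRDX3/PRDX1 and PRDX4/PRDX1.

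The changes ran with the GC content of the transcripts. The 3 genes that fell had the highest median transcript GC of the set: GPX1 62.6%, PRDX5 60.7% and PRDX2 58.3%. CAT had 45.2% and SOD2 48.0%, and the genes that did not pass ranged from 40.7% (PRDX3) to 51.3% (PRDX4). Over the 10 genes, which share the same libraries, rank correlation of fold change and GC content gave a rho of -0.78, as a description. The part of GC content in these changes was not tested beyond the values that follow. PRDX3 and PRDX6 (45.5%) lay below CAT and SOD2 in fold change at a similar or lower GC content. The difference in GC content between the genes of a ratio was -17.4 percentage points for CAT minus GPX1 and -20.0 for PRDX3 minus PRDX5. For SOD2 minus SOD1 it was -1.70 by the median transcript and -12.0 by the longest. With the trend of median transcript GC removed from each gene, the log2 change of PRDX3 over PRDX5 turned to -0.40. That of CAT over GPX1 then shrank to 0.69, and that of SOD2 over SOD1 was 0.51. With the trend of the longest transcript removed instead, SOD2 stood at -0.10 and SOD1 at 0.39, so the change of their ratio turned negative. CAT (0.50) then stayed above GPX1 (-0.33).

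**Figure D4:**
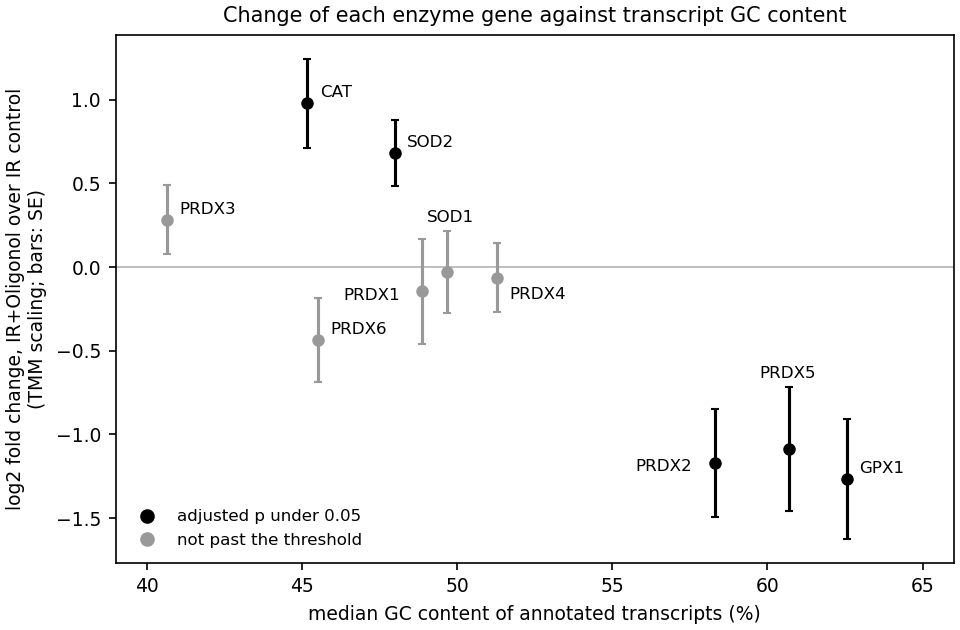
Log2 fold change with Oligonol (TMM scaling, bars SE) against the median GC content of each gene's annotated transcripts, in percent. GPX1, PRDX5 and PRDX2 sit at 58.3 to 62.6% GC with negative values, and the other 7 genes at 40.7 to 51.3% with values from -0.44 to 0.98.

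When each library's trend with GC content was removed, none of the 10 genes passed the threshold, beside 5.44% of all tested genes. SOD2 then stood at 0.31 (SE 0.13, edgeR adjusted p = 0.172) and CAT at 0.32 (SE 0.20, adjusted p = 0.342). GPX1 stood at -0.37 (adjusted p = 0.310), PRDX2 at -0.47 (adjusted p = 0.179) and PRDX5 at -0.27 (adjusted p = 0.501), each nearer 0 than under TMM alone. PRDX6 and PRDX3 moved the other way, to -1.04 (SE 0.26, adjusted p = 0.0626) and -0.67 (SE 0.18, adjusted p = 0.0728), and PRDX3 changed sign. Of the 10 values 8 were then negative, beside 47.4% of all tested genes, and 4 had an unadjusted p under 0.05, beside 27.5%. With GC taken from the longest transcript of each gene, SOD2 turned to -0.10 (adjusted p = 0.708) and again no member passed, beside 8.93% of all tested genes (4.59% higher and 4.34% lower). The longest SOD2 transcript is 14266 nt at 41.7% GC, against a median of 698 nt. Removing the trend also removes any true change that follows GC content.

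**Figure D5:**
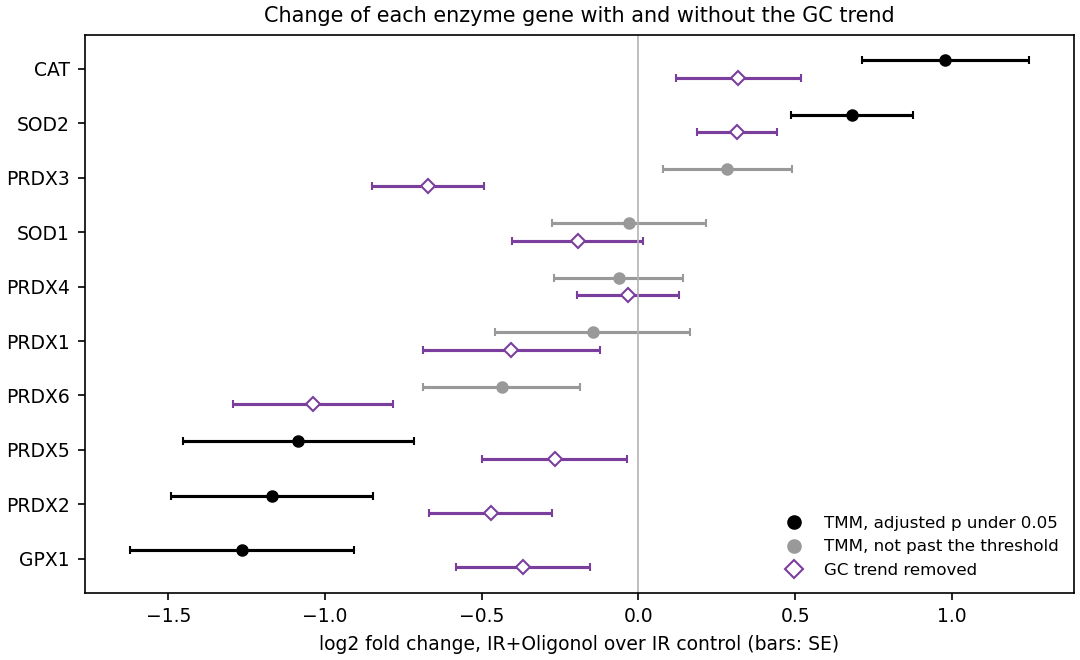
Log2 fold change with its SE for each gene under TMM scaling (circles, black where the adjusted p is under 0.05) and with the GC trend removed (open diamonds). The 5 called genes move toward 0, to between -0.47 and 0.32, and PRDX6 and PRDX3 move to -1.04 and -0.67.

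Calls also depended on single libraries at this sample size, as they did over all tested genes. Genes called went from 4304 higher and 3808 lower to 2118 and 1321 without IR+Oligonol 3, and to 2225 and 1459 without IR+Oligonol 1. Without IR+Oligonol 2 they were 4540 and 4381. SOD2 passed when IR+Oligonol 2 was left out (adjusted p = 0.0131) and not without IR control 1 (0.0545), 2 (0.0872) or 3 (0.0523) or IR+Oligonol 1 (0.0862) or 3 (0.0612). CAT lost its call without IR control 3 (0.0596), IR+Oligonol 1 (0.0698) or IR+Oligonol 3 (0.0774). GPX1 lost it without IR control 2 (0.0694) or 3 (0.0532) or IR+Oligonol 1 (0.0725) or 3 (0.0822), and PRDX2 without the same 4 libraries (0.0624, 0.0536, 0.0755 and 0.0828). PRDX5 kept it only without IR+Oligonol 2 (0.00291) and otherwise had adjusted p from 0.0510 to 0.136. The direction of these 5 genes was the same in all 6 fits. Without IR+Oligonol 2 the falls were deeper, with log2 fold changes of -1.70 for GPX1, -1.54 for PRDX2 and -1.57 for PRDX5.

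Processed pseudogenes can draw reads from their parent genes. Of 16 listed pseudogenes of the 10 genes, 7 were at 0 in all libraries, and the highest had a mean of 0.306 CPM, below every member. PRDX6-AS1, antisense to PRDX6, stood at 1.45 ± 0.503 CPM in the controls and 1.39 ± 0.355 with Oligonol.

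The genes around these enzymes were read from 8 lists of 88 genes, of which 68 were tested. Of these 20 were higher and 17 lower, close to the 48.9% of all genes called. The counts by list below stand beside 26.0% higher and 23.0% lower of all tested genes. The median log2 fold change was 0.12, against 0.15 over all genes. With the GC trend removed, none of the 68 was higher and 3 were lower, beside 2.89% higher and 2.56% lower of all tested genes. TXN and GGCT among them were singled out after their values were seen. TXN, the cytosolic thioredoxin that recharges peroxiredoxins, then stood at -1.52 (adjusted p = 0.0465), against -0.30 (adjusted p = 0.250) under TMM alone. GGCT, an enzyme of glutathione breakdown, stood at -0.89 (adjusted p = 0.0336) and at -0.11 (adjusted p = 0.644) under TMM alone.

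Genes that supply and assist dismutases moved in both directions, with 2 of 4 tested higher and 1 lower. CCS, the chaperone that loads copper into SOD1, fell from 3.82 ± 0.585 to 2.31 ± 0.337 CPM (log2 fold change -0.74, adjusted p = 0.0181), and MTF1, a metal-responsive transcription factor, rose from 0.452 ± 0.0721 to 0.900 ± 0.0276 (0.99, adjusted p = 0.0201). Of the other glutathione peroxidases 3 of 7 were tested and all 3 were lower, beside 23.0% of all tested genes. With the GC trend removed none of them passed. GPX4 then stood at -0.13 (adjusted p = 0.671), GPX3 at -0.03 (adjusted p = 0.908) and GPX7 at -0.65 (adjusted p = 0.0887). Under TMM alone the falls were as follows. GPX4, which reduces lipid peroxides, went from 108 ± 11.5 to 52.3 ± 20.2 CPM (-1.05, adjusted p = 0.0279), and GPX7, an ER peroxidase, from 3.27 ± 0.928 to 1.68 ± 0.149 (-0.96, adjusted p = 0.0139). By library totals these 3 values also changed sign, to 0.63 for CCS (adjusted p = 0.0485), 0.26 for GPX4 (adjusted p = 0.189) and 0.44 for GPX7 (adjusted p = 0.188), and only CCS passed. Of 7 tested genes of selenoprotein synthesis 3 were higher and none lower, beside 26.0% and 23.0% of all tested genes. They include SECISBP2, which reads the selenocysteine signal of mRNAs (1.28, adjusted p = 0.00815), and SEPSECS, which makes selenocysteyl-tRNA (1.31, adjusted p = 0.0147). Selenoproteins themselves went both ways in the same libraries. GPX1, GPX4, GPX3 (-0.55, adjusted p = 0.0446) and TXNRD2 (-0.70, adjusted p = 0.0143) were lower, and TXNRD1 was higher (0.52, adjusted p = 0.0311). TXNRD3 (0.80, adjusted p = 0.0663) and SEPHS2 (0.19, adjusted p = 0.674) did not pass.

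The peroxiredoxin recycling list, which also holds the thioredoxin inhibitor TXNIP, had 4 of 10 genes higher and 2 lower. TXNIP was among those higher (log2 fold change 0.90, adjusted p = 0.0126). SESN1, a sestrin, rose from 0.771 ± 0.0569 to 2.00 ± 0.240 CPM (log2 fold change 1.37, adjusted p = 0.00675), and its relative SESN2 fell from 2.88 ± 0.289 to 1.36 ± 0.210 (-1.10, adjusted p = 0.00817, and 0.28 by library totals). Glutathione synthesis and recycling had 1 of 9 higher and 1 lower. GCLC, the catalytic subunit of the first step, stood at 0.79 (adjusted p = 0.0177), and GSS, the second step, at -1.17 (adjusted p = 0.0117, and 0.18 by library totals). In NADPH supply 4 of 12 were higher and 3 lower. The mitochondrial transhydrogenase NNT rose from 1.50 ± 0.381 to 3.12 ± 0.239 CPM (1.07, adjusted p = 0.00993), and the mitochondrial isocitrate dehydrogenase IDH2 fell from 26.8 ± 3.15 to 12.9 ± 3.33 (-1.05, adjusted p = 0.0129, and 0.30 by library totals).

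Peroxisome assembly genes, the makers of the compartment that holds catalase, had 3 of 15 higher and 6 lower. Of all tested genes 26.0% were higher and 23.0% lower. The smallest p belonged to falls of the ubiquitin ligase subunit PEX10 (log2 fold change -1.37, adjusted p = 0.00601) and the receptor-recycling ATPase PEX6 (-1.27, adjusted p = 0.00774), which were 0.00 and 0.07 by library totals. Of the sources of superoxide and peroxide 8 of 19 were tested, with 3 higher and 1 lower. CYBA, the membrane subunit of NADPH oxidases, fell from 31.0 ± 2.51 to 12.2 ± 4.34 CPM (-1.34, adjusted p = 0.0104, and -0.02 by library totals), and the ER oxidase ERO1A rose from 1.42 ± 0.360 to 2.84 ± 0.498 (1.01, adjusted p = 0.0141). With the GC trend removed none of the 16 genes named from the 8 lists by the smallest p passed, but with that of the longest transcript GPX7 (-0.88, adjusted p = 0.0407) and PEX10 (-0.53, adjusted p = 0.0499) did. By the median transcript, GC-removed values of the 16 genes ran from -0.72 for GSS (adjusted p = 0.0714) to 0.67 for SECISBP2 (adjusted p = 0.0643). Those of ERO1A (-0.02), GCLC (0.06), GPX4 (-0.13) and NNT (0.15) lay nearest 0. CCS turned to 0.16 (adjusted p = 0.538). With DESeq2 the calls of MTF1 (adjusted p = 0.15), SEPSECS (0.131) and GCLC (0.0778) were lost. Over all tested genes, leaving out 1 library gave 2118 to 4540 called higher, beside 4304, and 1321 to 4381 lower, beside 3808. It ended the edgeR call of 8 of the 16 genes, with adjusted p from 0.0532 to 0.107. These were CCS, MTF1, GPX4, GCLC, IDH2 and SEPSECS without IR+Oligonol 1 or 3, GPX7 without IR+Oligonol 1 and ERO1A without IR+Oligonol 3. Without IR control 3 the calls of CCS, GPX4, GCLC and SEPSECS were also lost, without IR control 2 those of GPX4 and GCLC, and without IR control 1 that of MTF1.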

How the data were processed

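In all, 6 libraries of SH-SY5Y were analysed, 3 per group, grouped by their titles. Total RNA was extracted with TRIzol and made into stranded total RNA libraries, read on both ends for 100 cycles, per the labels' protocols. Of tools, FastQC, edgeR and kallisto 0.46.1 are listed, and GRCh38.p13 as the build, without role or order, per the submitters' processing notes. The authors deposited estimated counts per gene (99.0 to 99.1% of values above 0 were not whole) and a scaled signal. Each library's deposited signal equals its estimated counts times a fixed constant. These constants equal the CPM scaling of the library total times a factor whose geometric mean over libraries is 1.0000, and the signal was not used in tests. In genes with 1 annotated transcript of 500 to 1500 nt, estimated counts times effective length fell within 0.05 of whole reads in 70.0 to 71.7% of low values, with length and scale fitted to favour whole numbers. A single read on a transcript of 1 kb came to 0.311 to 0.547 estimated counts, and protein-coding genes held 5198105 to 6418998 read equivalents per library.

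Estimated counts were rounded, filtered with filterByExpr, scaled by TMM and tested with edgeR 4.0.16 (R 4.3.3) by its robust quasi-likelihood test, which is 2-sided, at a Benjamini-Hochberg adjusted p of 0.05. The test script was tested on simulated data. GC content and length came from GENCODE release 29, as medians over transcripts, and 58254 gene identifiers were matched. To remove the GC trend, log2 CPM of protein-coding genes was fitted by a natural spline with 5 degrees of freedom in each library, and the fit became the offset of all genes with a GC value (97.7% of those tested). Genes named were the 10 members, the 2 genes of each list with the smallest p, pseudogenes at 1 CPM or more (none were) and the 3 genes most like the member with the smallest p. Members and lists were chosen with earlier results of these data known. Alternatives were other scalings, DESeq2 1.42.0, limma-voom (limma 3.58.1), other filters, read equivalents, protein-coding genes only (GPX1, annotated as a polymorphic pseudogene, included), GC removal, the replicate block and each library left out. A result that the text would otherwise have named is not reported here.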

Additional observations from a re-analysis of the deposited data

How the results depend on the processing

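GC content of the longest transcript was an alternative chosen after the data were seen, as was leaving out libraries with the GC trend removed. Under RLE and upper-quartile scaling, limma-voom, DESeq2, read equivalents, protein-coding genes only, at least 10 counts in all libraries and the replicate block, the 2 rises and 3 falls among the 10 genes were called in the same direction. With at least 10 counts PRDX3 was also called higher (adjusted p = 0.0477). CAT, at 34.7 to 108 read equivalents, had the least depth. Genes called higher (4304) and lower (3808) became 468 and 414 with the GC trend removed, 743 and 703 with that of the longest transcript, 11293 and 37 by library totals, and 1603 lower without a filter. Leaving out 1 library gave 2118 to 4540 higher and 1321 to 4381 lower. The enzyme genes called higher (2) were 0 under both GC removals, 7 by library totals, 1 without a filter and 0 to 2 with a library left out. Those called lower (3) were 0 under both GC removals, by library totals and without a filter, and 0 to 3 with a library left out. With the GC trend removed and a library left out, 1 of 60 member values passed (PRDX6 without IR control 1, adjusted p = 0.0460). Pathway genes called higher (20) were 11 with DESeq2, 0 under both GC removals, 55 by library totals, 9 without a filter and 6 to 23 with a library left out. Those called lower (17) were 3 and 6 under the 2 GC removals, 0 by library totals, 7 without a filter and 6 to 20 with a library left out.

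Log2 fold changes that changed sign by library totals were those of SOD1 (1.40), GPX1 (0.04), PRDX1 (1.31), PRDX2 (0.15), PRDX4 (1.35), PRDX5 (0.20), PRDX6 (0.95), CCS (0.63), GPX7 (0.44), GPX4 (0.26), SESN2 (0.28), GSS (0.18), IDH2 (0.30), PEX10 (0.00) and PEX6 (0.07). With the GC trend removed PRDX3 (-0.67), CCS (0.16) and ERO1A (-0.02) did, and with that of the longest transcript SOD1 (0.39), SOD2 (-0.10), PRDX1 (0.05), PRDX3 (-0.37), PRDX4 (0.16) and CCS (0.25). With at least 10 counts in all libraries SOD1 (0.23), PRDX1 (0.12) and PRDX4 (0.19) did. SOD1 also turned with limma-voom (0.02), protein-coding genes only (0.04) and upper-quartile scaling (0.07), and PRDX4 with protein-coding genes only (0.00) and upper-quartile scaling (0.03). With a library left out SOD1 ranged from -0.24 to 0.21, PRDX1 from -0.41 to 0.22 and PRDX4 from -0.21 to 0.15, and the log2 change of PRDX3 over PRDX1 from -0.14 to 0.75 and of PRDX4 over PRDX1 from -0.10 to 0.18. The cause of these changes was not tested.

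No pairing by replicate number was seen: deviations of same-numbered libraries correlated at 0.0870, -0.00874 and -0.147, and those of differently numbered libraries at -0.186 to 0.191. With 3 libraries per group these values cannot show if same-numbered samples were handled together. With the replicate block alone, SOD1 stood at 0.01 and MTF1 at 1.00 (adjusted p = 0.0514). With the replicate block and the GC trend removed, no gene was called higher (0) or lower (0), no member (0 and 0) and no pathway gene (0 and 0), and PRDX3 stood at -0.68, CCS at 0.17 and ERO1A at -0.02.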
